A study of Mus musculus with 12 samples.

Results

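The EGF family of the mouse renal cortex was followed through 10 genes, the ligands Egf, Hbegf, Areg, Ereg, Tgfa and Btc and the receptors Egfr, Erbb2, Erbb3 and Erbb4. Every probe set of the array whose annotated symbol is one of these names was taken, which gave 20 probe sets for 9 genes among 45101 probe sets and 18193 genes. Areg had no probe set under its symbol and was not analysed here. Of these, 14 probe sets of 7 genes were bright enough to be tested, against 24790 probe sets and 12385 genes of the whole table.

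RNA came from the cortex of ICGN mice aged 8 weeks, ICR mice aged 8 weeks, ICGN mice aged 4 weeks and ICR mice aged 4 weeks, with 3 arrays in each of these 4 groups. ICGN is a line derived from ICR stock and is labelled as nephrotic, a state of heavy protein loss through leaking glomeruli, while ICR is labelled as normal. No group was treated. ICGN mice are known to carry a mutation of Tns2, an adaptor of integrin adhesions, and any other difference between the lines is part of the strain comparison too. The labels number the replicates without saying whether each came from a different mouse, so each p-value reflects only how far these samples spread, which may be technical, and 3 arrays a group limit the precision of every value.

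EGF family ligands are made as membrane-anchored precursors and are released when proteases of the ADAM group cut them. The free ligand joins receptors into pairs: EGFR binds most ligands discussed here, ERBB2 has no known ligand and acts as a partner, ERBB3 has little kinase activity of its own and binds neuregulins, and ERBB4 binds both kinds of ligand. In the kidney Egf is made mainly by the thick ascending limb and the distal convoluted tubule, where its product is known to keep the magnesium channel TRPM6 active. Receptor pairs signal through RAS, MAP kinases and PI3 kinase, and immediate targets such as Fos and Egr1 follow within minutes in cultured cells.

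The 250 bases before the transcription start are shown for Egf and Tgfa, the members whose strain differences at 8 weeks passed the test in opposite directions. Both are RefSeq sequences on build GRCm38.p6, read 5′ to 3′ on the gene's own strand. Egf lies on the minus strand with this stretch at chr3:129755323-129755572, and Tgfa on the plus strand with its stretch at chr6:86194972-86195221. The RefSeq table held 2 promoter entries for Egf, of which 1 is printed, and 1 for Tgfa. Capitals mark TTTAAA in Egf and GGGCGG, or its reverse complement, in Tgfa.
Egf: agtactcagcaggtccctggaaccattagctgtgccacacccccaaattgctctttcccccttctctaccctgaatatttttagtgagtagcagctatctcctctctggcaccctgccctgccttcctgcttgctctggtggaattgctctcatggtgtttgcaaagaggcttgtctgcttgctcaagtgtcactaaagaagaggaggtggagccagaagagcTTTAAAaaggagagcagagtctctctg
Tgfa: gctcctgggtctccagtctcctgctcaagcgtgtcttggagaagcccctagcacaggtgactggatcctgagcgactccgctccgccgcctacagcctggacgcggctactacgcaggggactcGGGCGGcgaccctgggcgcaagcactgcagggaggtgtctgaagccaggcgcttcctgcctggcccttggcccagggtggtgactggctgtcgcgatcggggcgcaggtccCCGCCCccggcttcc
The Egf stretch has 50.4% G and C and holds TTTAAA once, beginning 27 bases before the start. The Tgfa stretch has 69.2% G and C and holds GGGCGG on either strand 2 times, beginning 126 and 15 bases before the start. On both strands, TATAAA and the AP-1 motif TGANTCA were looked for too, and neither stretch holds them. Of 32851 promoter stretches of this length, 12.1% hold TTTAAA, 12.4% hold TATAAA, 32.7% hold GGGCGG and 6.75% hold TGANTCA. A match is a description of the sequence only.

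Signals below are the deposited intensities after each array was scaled to one median of the tested probe sets, in arbitrary units. Log2 fold changes are ICGN over ICR unless stated, on the log2(signal + 11.1) scale, which understates changes of dim probe sets, and are given with their standard error. A gene was called, and is said to have risen or fallen, at an adjusted p of 0.05 or less in limma's moderated test with Benjamini-Hochberg adjustment over all 24790 tested probe sets. Levels of different probe sets cannot be set against each other. The 2 ages had been scaled by the authors to separate targets, so an age difference and a difference in processing cannot be told apart.

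The arrays bore out the strain labels. The Tns2 probe set read 78.8 ± 43.8 in ICGN and 310 ± 19.2 in ICR at 8 weeks, and 78.2 ± 15.3 in ICGN and 330 ± 11.8 in ICR at 4 weeks (SD, n = 3 each); where this probe set lies relative to the mutation was not examined. Arrays of one group correlated with each other between 0.9747 and 0.9873 on the log2 scale. Of the marker lists for cortex and for inner medulla, 19 proximal tubule and 8 inner medulla genes were bright enough to be tested, and the 8 inner medulla genes summed to between 4180 and 4505 in ICGN and between 4089 and 5152 in ICR at 8 weeks, with overlap.

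Over all genes, 10.8% were called higher and 20.8% lower in ICGN at 8 weeks, and 1.85% were called higher and 1.65% lower at 4 weeks. The 8-week balance depended on the scaling: 34.2% of the calls were higher here, against 60.3% with the authors' scaling, 50.5% with quantile normalization and 24.8% with equal whole-table medians, and the authors' scaling moved the median log2 fold change of all genes to 0.05. Of the 7 tested members, Tgfa was called higher and Egf lower at 8 weeks, and Hbegf was called lower and none higher at 4 weeks. The 3 ICGN arrays did not overlap the 3 ICR arrays for 2 of 7 members at 8 weeks, against 45.7% of all genes, and for 3 of 7 at 4 weeks, against 24.5% of all genes. The median log2 fold change of the members was -0.06 at 8 weeks and -0.13 at 4 weeks, beside -0.10 and -0.01 over all genes at those ages. Counted over probe sets in either direction, 3 of 14 member probe sets were called at 8 weeks and 2 of 14 at 4 weeks, where 27% and 3.09% of all tested probe sets were called. The members' counts are thus near or below the background at 8 weeks.

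**Figure D1:**
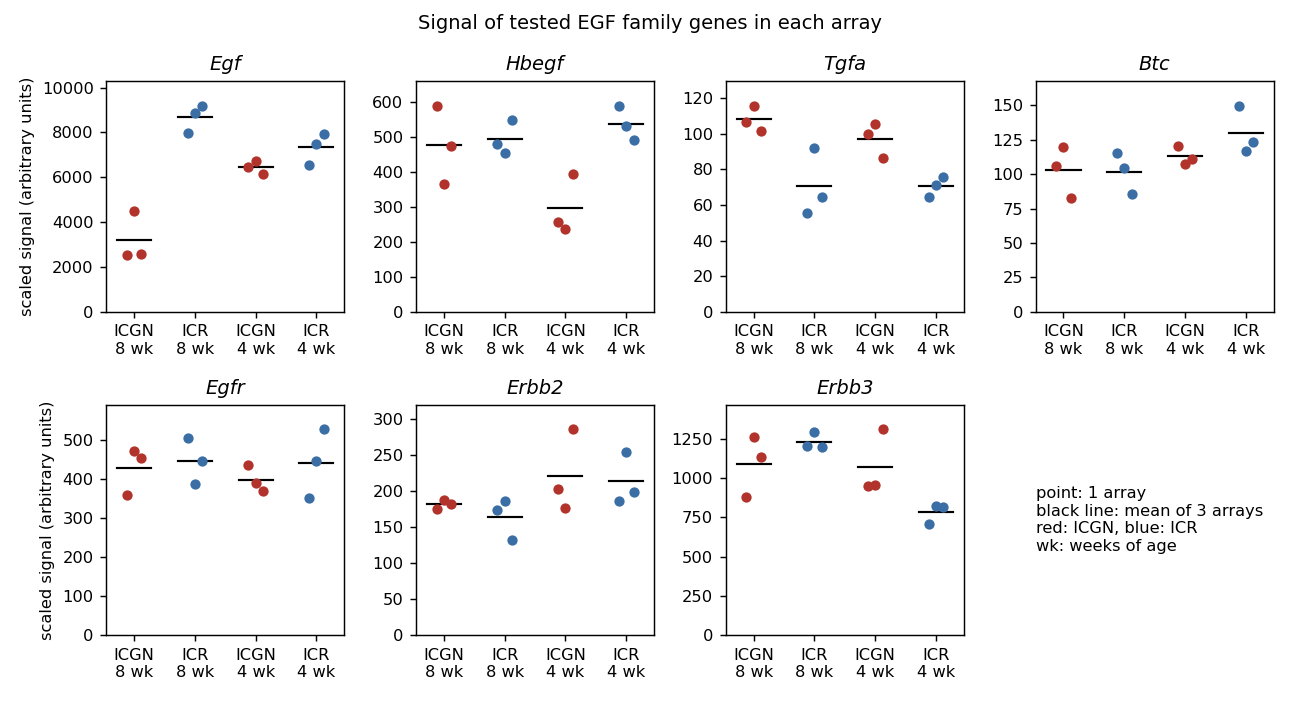
Scaled signal (arbitrary units, linear axes from 0) of the 7 tested EGF family genes in each array, ICGN in red and ICR in blue, with a black line at the mean of 3 arrays. Egf stands apart in ICGN at 8 weeks (2517 to 4516 against 7966 to 9194 in ICR) and Hbegf in ICGN at 4 weeks (236 to 394 against 493 to 590 in ICR).

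Egf, the epidermal growth factor precursor, fell in ICGN cortex at 8 weeks to about a 2.80-fold lower level than in ICR. Its probe set read 2517, 4516 and 2589 in ICGN at 8 weeks, against 7966, 8880 and 9194 in ICR at 8 weeks. All 3 ICGN arrays lay below all ICR arrays, and the second ICGN replicate lay between the other two and ICR. At 4 weeks the probe set read 6468, 6746 and 6158 in ICGN, against 6560, 7497 and 7937 in ICR. There the groups overlapped. The log2 fold change was -1.49 ± 0.17 at 8 weeks (95% interval -1.85 to -1.12, adjusted p = 5.35e-05) and -0.18 ± 0.17 at 4 weeks (95% interval -0.55 to 0.19, adjusted p = 0.676). Among 12385 genes, Egf had the log2 fold change of rank 69 from the lowest at 8 weeks. Without the second ICGN replicate the 8-week value was -1.76, and over all single arrays left out it lay between -1.76 and -1.34.

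The strain difference of Egf itself differed between the ages. The 8-week difference minus the 4-week difference was -1.31 ± 0.24 on the log2 scale (95% interval -1.83 to -0.78, adjusted p = 0.00873). For this interaction 2.96% of all genes were called with a positive and 5.03% with a negative value, and Egf was the 1 member called by the probe set that represents its gene. Ordered by mean, Egf read 8680 ± 638 in ICR at 8 weeks, 7331 ± 703 in ICR at 4 weeks, 6457 ± 295 in ICGN at 4 weeks and 3208 ± 1134 in ICGN at 8 weeks (SD, n = 3 each). Of these neighbours, the last pair passed the test, and the first pair (adjusted p = 0.302) and the middle pair (adjusted p = 0.676) did not.

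Egf was then read beside the genes of the tubule segments that make it. In ICGN, 2 of 17 tested distal tubule genes rose and 6 fell at 8 weeks, and 0 rose and 2 fell at 4 weeks, with a median log2 fold change of -0.25 at 8 weeks and -0.24 at 4 weeks. Among all genes 10.8% rose and 20.8% fell at 8 weeks, and 1.85% rose and 1.65% fell at 4 weeks. The 8-week balance of the distal tubule genes depended on the scaling, with 3 higher and 4 lower under the authors' scaling and 4 higher and 5 lower under quantile normalization. Pvalb, a calcium-binding protein of the distal convoluted tubule, read 131, 167 and 153 in ICGN against 1009, 1291 and 1125 in ICR at 8 weeks. It had log2 fold changes of -2.83 ± 0.17 at 8 weeks (adjusted p = 6.74e-07) and -1.96 ± 0.17 at 4 weeks (adjusted p = 4.32e-05), with no overlap of the arrays at either age. Slc12a3, the thiazide-sensitive sodium chloride cotransporter of the same segment, fell by 1.11 on the log2 scale at both ages. Wnk4, a kinase that regulates it, and Ppp1r1a, a phosphatase inhibitor, fell by 1.02 and by 1.00 at 8 weeks, and neither was called at 4 weeks. Cldn10 fell by 0.43 and Wnk1 by 0.31 at 8 weeks, and both calls were lost with the authors' scaling and with quantile normalization. Wnk1 had a value of 0.06 when all its probe sets were averaged.

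Among the thick limb genes, Umod and Slc12a1 were not called, Cldn16 rose, and Cldn10 fell in the main setting, as given above. Umod, the uromodulin of the thick ascending limb, had a log2 fold change of -0.16 ± 0.09 at 8 weeks (adjusted p = 0.236). Its ICGN arrays (10179, 11307 and 11124) nevertheless all lay below its ICR arrays (11515, 11954 and 12843) at that age. Kcnj1 read 919, 1018 and 1010 in ICGN and 1355, 1372 and 989 in ICR at 8 weeks, with overlap. Slc12a1, the sodium potassium chloride cotransporter of that limb, had 0.11 ± 0.22 (adjusted p = 0.749). Cldn16, a claudin of the magnesium path between thick limb cells, rose by 0.81 ± 0.13 (adjusted p = 6.06e-04). Klk1, tissue kallikrein of the connecting tubule, rose by 0.39, a call lost under 10 of 18 alternatives.

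At 8 weeks the summed signal of the 17 distal tubule genes was 34962 to 40876 in ICGN and 40718 to 42489 in ICR. At 4 weeks the sum was 45758 to 53324 in ICGN and 53663 to 59536 in ICR. This sum, like every list sum given here, is weighted to its brightest probe sets. At 8 weeks Umod averaged 10870 in ICGN and 12104 in ICR, and Pvalb 150 and 1141.5. The sum is thus no level of the segment. The log2 value of Egf minus the mean log2 value of these 17 genes was 1.55, 2.29 and 1.52 in ICGN and 2.75, 2.97 and 3.09 in ICR at 8 weeks. At 4 weeks it was 2.13, 2.28 and 2.39 in ICGN and 1.95, 2.23 and 2.21 in ICR. The groups did not overlap at 8 weeks and overlapped at 4 weeks. In whole cortex, fewer distal tubule cells and less RNA per cell cannot be told apart.

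**Figure D2:**
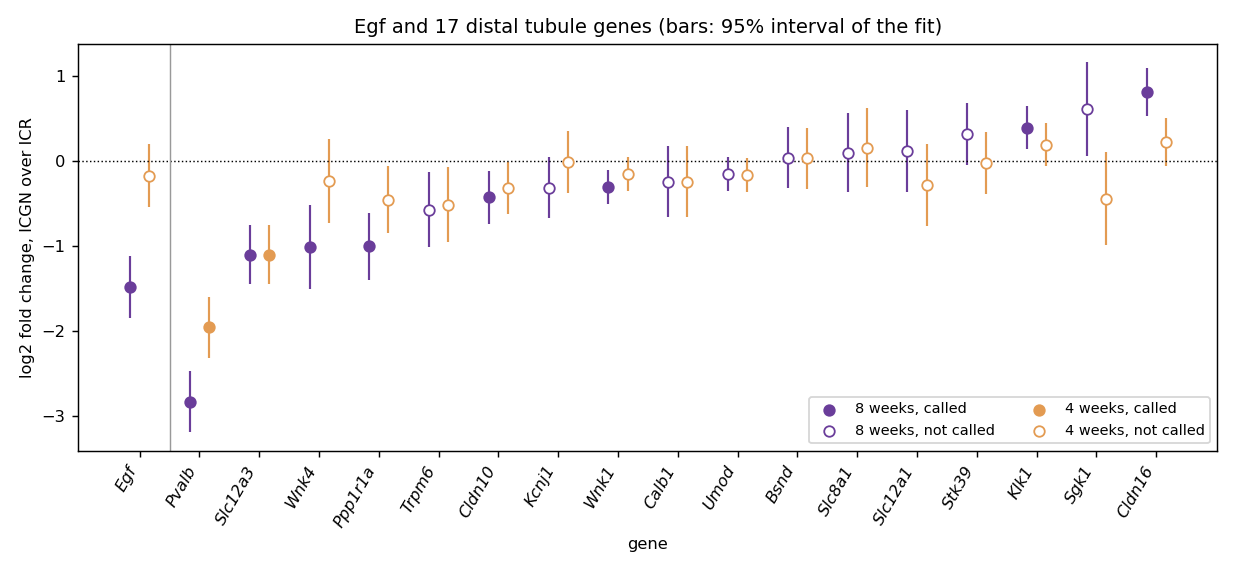
Log2 fold change of ICGN over ICR for Egf (left of the grey line) and the 17 tested distal tubule genes, ordered by their 8-week value, at 8 weeks (purple) and 4 weeks (orange); bars are 95% intervals of the fit, and filled points passed the test. Egf lies at -1.49 at 8 weeks and -0.18 at 4 weeks, while Pvalb and Slc12a3 are low at both ages and Umod and Slc12a1 have intervals that hold 0.

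Lists of other tubule and cell type markers were read in the same arrays, and whether they followed Egf was not tested. Some of these lists held called genes at 4 weeks as well as at 8 weeks. Over all 12385 genes, 10.8% rose and 20.8% fell at 8 weeks, and 1.85% rose and 1.65% fell at 4 weeks. At 8 weeks 2572 of them fell here, 1389 with the authors' scaling and 1542 with quantile normalization. Of 19 proximal tubule genes 13 fell at 8 weeks and 0 at 4 weeks. At 8 weeks 10 of these fell under the authors' scaling, and 6 fell and 1 rose under quantile normalization. Their sum lay between 98107 and 111150 in ICGN and between 139400 and 160610 in ICR at 8 weeks. Of 18 tubular injury genes 17 rose at 8 weeks and 8 at 4 weeks, and their sum at 8 weeks lay between 17017 and 22408 in ICGN and between 6998 and 7847 in ICR. Of 14 macrophage genes 13 rose at 8 weeks and 9 at 4 weeks, with a sum between 8276 and 10028 in ICGN and between 3612 and 4597 in ICR at 8 weeks. Lcn2, Krt20, Sox9 and Ccl2 of the injury list and Ms4a7 of the macrophage list lay above the array median in ICGN arrays alone, so they entered these counts only through the strain where they are high. Of 13 fibroblast and smooth muscle genes 7 rose and 1 fell at 8 weeks, and of 12 endothelial genes 0 rose and 9 fell. Of 12 podocyte genes 2 rose (5 with the authors' scaling, and 0 to 3 with single arrays left out), of 4 lymphocyte genes 2 rose, and of 8 inner medulla genes 1 rose and 1 fell at 8 weeks. For podocyte and inner medulla genes, the number that rose is near the share over all genes. The part of the listed cell types in the values of Egf, Hbegf and Tgfa was not tested.

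Hbegf, the heparin-binding ligand of EGFR and ERBB4, fell in ICGN at 4 weeks and had no called strain difference at 8 weeks. Its brighter probe set, 1418350_at, read 258, 236 and 394 in ICGN and 590, 532 and 493 in ICR at 4 weeks. All ICGN arrays lay below all ICR arrays. At 8 weeks it read 589, 366 and 476 in ICGN and 481, 455 and 548 in ICR, with overlap. The log2 fold change was -0.07 ± 0.19 at 8 weeks (adjusted p = 0.807) and -0.87 ± 0.19 at 4 weeks (adjusted p = 0.021, 1.83-fold lower in ICGN).

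The second Hbegf probe set, 1418349_at, read 105, 73.7 and 121 in ICGN and 217, 212 and 164 in ICR at 4 weeks, again without overlap. Its log2 fold change was 0.03 ± 0.19 at 8 weeks (adjusted p = 0.928) and -0.93 ± 0.19 at 4 weeks (adjusted p = 0.0151). This 4-week call was lost without ICGN replicate 2 or without ICR replicate 1 or 2, with adjusted p up to 0.0749. The 4-week call of the brighter probe set was lost without ICGN replicate 1 (adjusted p = 0.0968) or 2 (0.107) and without ICR replicate 1 (0.0692) or 2 (0.064), with values between -1.09 and -0.73, and it was lost without the mean-variance trend. The interaction was 0.80 ± 0.26 for the brighter probe set (adjusted p = 0.0856) and 0.95 ± 0.26 for the other (adjusted p = 0.0466, a call lost under 12 of 20 alternatives). Ordered by mean, the brighter probe set read 538 ± 48.9 in ICR at 4 weeks, 495 ± 47.8 in ICR at 8 weeks, 477 ± 112 in ICGN at 8 weeks and 296 ± 85.4 in ICGN at 4 weeks. The first 2 pairs of neighbours did not pass the test, and the last pair did.

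Tgfa, transforming growth factor alpha, a ligand of EGFR, rose in ICGN at 8 weeks by its brightest probe set. That probe set, 1421943_at, read 107, 116 and 102 in ICGN and 55.3, 92.3 and 64.3 in ICR at 8 weeks. At 4 weeks it read 100.02, 106 and 86.2 in ICGN and 64.4, 71.5 and 75.7 in ICR. All ICGN arrays lay above all ICR arrays of their age. The log2 fold change was 0.57 ± 0.17 at 8 weeks (adjusted p = 0.0224, 1.48-fold) and 0.41 ± 0.17 at 4 weeks (adjusted p = 0.239), and their difference was 0.16 ± 0.24 (95% interval -0.35 to 0.67, adjusted p = 0.725). The 8-week call was lost without ICGN replicate 1 (adjusted p = 0.0536) or 2 (0.0724) and without ICR replicate 1 (0.0836) or 3 (0.0706), over values from 0.43 to 0.75. It was lost as well with only the 8-week arrays in the fit (adjusted p = 0.0598).

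The 3 Tgfa probe sets did not move together. Probe set 1450421_at read 54.6, 55.1 and 63.0 in ICGN and 40.5, 49.9 and 47.4 in ICR at 8 weeks, with a log2 fold change of 0.27 ± 0.17 (adjusted p = 0.254). Probe set 1421942_s_at read 38.3, 28.4 and 19.0 in ICGN and 52.6, 60.6 and 43.4 in ICR at 8 weeks, the other way round and without overlap. Its log2 fold change was -0.70 ± 0.26. At 4 weeks the same probe set read 37.6, 36.2 and 18.9 in ICGN and 27.3, 19.3 and 22.7 in ICR, and it lay above the array median in 3 of 12 arrays, the 3 of ICR at 8 weeks. Having entered the test only through the group where it is high, its differences are given as values and no test is read from them. The called rise of Tgfa thus rests on its brightest probe set alone. The mean over the 3 probe sets gave 0.05 at 8 weeks. That mean includes 1421942_s_at, so its test (adjusted p = 0.838) is not read as evidence on Tgfa.

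Btc, betacellulin, a ligand of EGFR and ERBB4, read 106, 120 and 82.7 in ICGN and 115, 104 and 85.7 in ICR at 8 weeks. At 4 weeks it read 121, 107 and 111 in ICGN and 150, 117 and 123 in ICR. The groups overlapped at both ages. Btc had a log2 fold change of 0.01 ± 0.16 at 8 weeks (95% interval -0.33 to 0.34, adjusted p = 0.982), a value whose sign turned with the scaling, and -0.18 ± 0.16 at 4 weeks (adjusted p = 0.641). Its other probe set, 1421161_at, lay above the array median in 2 of 12 arrays and was not tested. Ereg, epiregulin, lay above the array median in 0 of 12 arrays, with signals from 1.78 to 15.5, so its level was not measured with useful precision here.

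Egfr, the receptor shared by most of these ligands, had 7 probe sets, of which 5 were tested. The brightest, 1435888_at, read 358, 471 and 453 in ICGN and 505, 388 and 446 in ICR at 8 weeks. At 4 weeks it read 436, 391 and 369 in ICGN and 352, 447 and 527 in ICR. The groups overlapped at both ages. Its log2 fold change was -0.06 ± 0.15 at 8 weeks (95% interval -0.39 to 0.26) and -0.13 ± 0.15 at 4 weeks (95% interval -0.46 to 0.20), and its 8-week sign turned with the authors' scaling and with quantile normalization.

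One Egfr probe set, 1460420_a_at, read 294, 291 and 259 in ICGN and 329, 380 and 345 in ICR at 8 weeks, without overlap. Its log2 fold change was -0.31 ± 0.11 (adjusted p = 0.0426), and this call was lost under 11 of 16 alternatives, with adjusted p up to 0.327. The 3 other tested probe sets had 8-week values of 0.16 ± 0.19 for 1424932_at, 0.05 ± 0.16 for 1451530_at and -0.44 ± 0.28 for 1432647_at, none of them called. At 4 weeks the 5 probe sets lay between -0.15 and 0.08, and none was called.

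Erbb2, the partner receptor without a ligand of its own, read 175, 187 and 182 in ICGN and 173, 187 and 132 in ICR at 8 weeks. At 4 weeks it read 202, 176 and 285 in ICGN and 187, 254 and 198 in ICR, and the groups overlapped at both ages. Erbb2 had a log2 fold change of 0.15 ± 0.18 at 8 weeks (95% interval -0.23 to 0.53, adjusted p = 0.565) and 0.04 ± 0.18 at 4 weeks (95% interval -0.34 to 0.41, adjusted p = 0.954).

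Erbb3, the neuregulin receptor with little kinase activity, read 878, 1262 and 1133 in ICGN and 1206, 1296 and 1198 in ICR at 8 weeks, with overlap. At 4 weeks it read 952, 958 and 1310 in ICGN and 709, 821 and 819 in ICR, and every ICGN array lay above every ICR array. Erbb3 had a log2 fold change of -0.19 ± 0.14 at 8 weeks (adjusted p = 0.356) and 0.44 ± 0.14 at 4 weeks (95% interval 0.13 to 0.74, adjusted p = 0.13). The interaction was -0.63 ± 0.20 (adjusted p = 0.0794) and was called under 0 of 23 alternatives. The Erbb4 probe set and the second Erbb3 probe set lay above the array median in 0 of 12 arrays, with Erbb4 signals from 0.379 to 7.44, and were not tested.

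**Figure D3:**
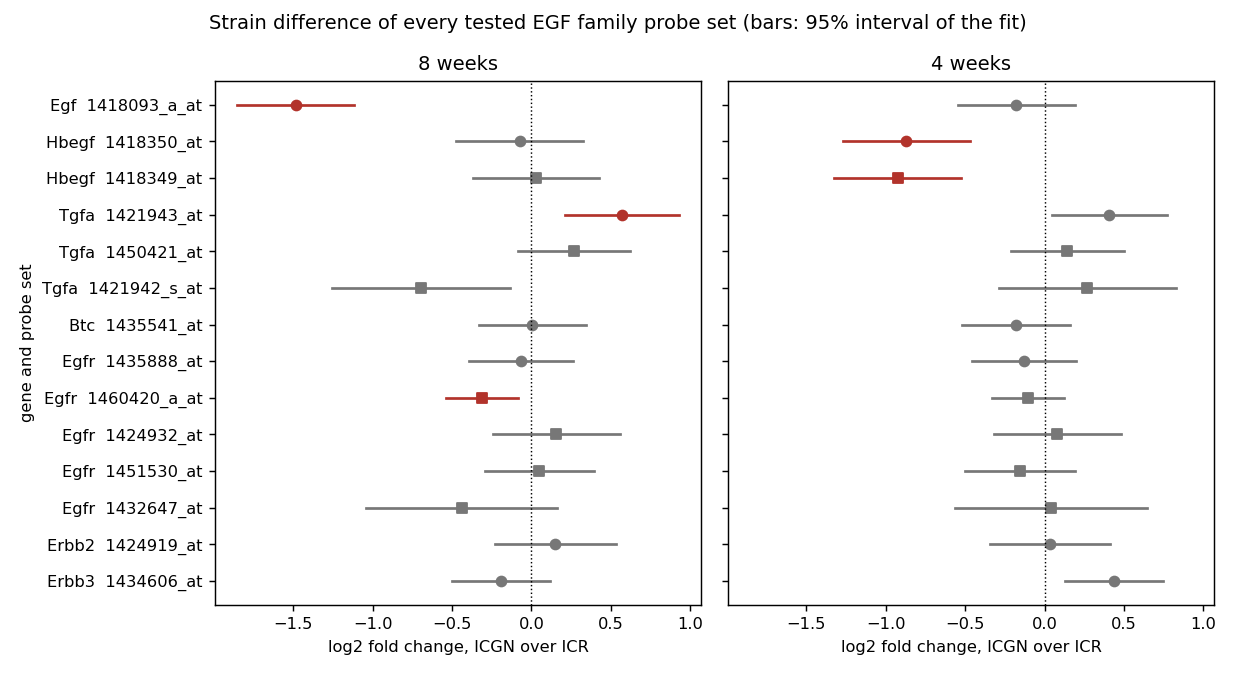
Log2 fold change of ICGN over ICR with its 95% interval for all 14 tested EGF family probe sets at 8 weeks (left) and 4 weeks (right), on one common axis; circles are the probe sets that represent a gene, squares the others, and red marks those that passed the test. At 8 weeks Egf (-1.49), the brightest Tgfa probe set (0.57) and 1 Egfr probe set (-0.31) passed, and at 4 weeks the 2 Hbegf probe sets (-0.87 and -0.93).

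The same members were compared between 8 and 4 weeks within each strain, where age and processing cannot be told apart. In ICGN, 9.46% of all genes were called higher and 13.3% lower at 8 weeks than at 4 weeks. Among the members, Hbegf was called higher and Egf lower. The log2 fold change of 8 over 4 weeks in ICGN was -1.06 ± 0.17 for Egf (adjusted p = 7.55e-04, all arrays lower) and 0.68 ± 0.19 for Hbegf (adjusted p = 0.0186, arrays overlapping). The second Hbegf probe set had 0.73 ± 0.19 (adjusted p = 0.0122). The call of the brighter one was lost without ICGN replicate 1 or 2 at 4 weeks and without replicate 1 or 3 at 8 weeks, with adjusted p between 0.0544 and 0.0878.

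In ICR, 18.9% of all genes were called higher and 13.3% lower at 8 weeks than at 4 weeks, and Erbb3 was the 1 member called, higher. Erbb3 rose by 0.65 ± 0.14 in ICR (adjusted p = 0.00385) and had 0.02 ± 0.14 in ICGN (adjusted p = 0.931). Egf had 0.25 ± 0.17 in ICR (adjusted p = 0.302), although each 8-week ICR array lay above each 4-week ICR array. Tgfa probe set 1421942_s_at had 0.89 ± 0.26 in ICR, a value with no test read from it because it passed the filter in the 3 ICR arrays at 8 weeks alone, and its 2 companions were not called. These age comparisons share arrays with the strain comparisons and are no separate support for them.

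Of the family's remaining ligands, Epgn, Nrg1, Nrg2, Nrg3 and Nrg4, 2 were tested, Nrg2 and Nrg4, neuregulins that bind ERBB3 or ERBB4. Nrg2 had a log2 fold change of -0.07 ± 0.20 at 8 weeks (adjusted p = 0.828) and Nrg4 of -0.52 ± 0.35 (adjusted p = 0.294). Each of them lay above the array median in 4 of 12 arrays.

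Genes that release the ligands and sort the receptors changed in both directions at 8 weeks. Of 16 tested, 4 rose and 4 fell at 8 weeks, and 0 rose and 0 fell at 4 weeks. Over all genes 10.8% were called higher and 20.8% lower at 8 weeks, and the number that fell here is near that share. Cd9, a tetraspanin that binds the HB-EGF precursor, rose by 0.75 ± 0.12 (adjusted p = 6.48e-04). The protease genes Rhbdl2, Adam8 and Adam12 rose by 0.79, 0.65 and 0.52, and these calls were lost under 6 of 17, 10 of 17 and 3 of 18 alternatives. Timp3, the inhibitor of ADAM17, fell by 0.48 ± 0.12 (adjusted p = 0.00894), a call lost with quantile normalization (-0.17, adjusted p = 0.241). Adam9 fell by 0.36, a call lost under 7 of 18 alternatives. Vps4a and Hgs, which act in the sorting of receptors to lysosomes, fell by 0.55 and by 0.34, and the call of Hgs was lost under 8 of 18 alternatives. Adam17 and Adam10, the main sheddases of these ligands, had -0.03 (adjusted p = 0.873) and 0.10 (adjusted p = 0.577). The number that fell was 2 with the authors' scaling and 1 with quantile normalization, and the number that rose lay between 1 and 4 when single arrays were left out.

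Of 25 tested adaptors and kinases of the pathway, 1 rose and 8 fell at 8 weeks, and none was called at 4 weeks. The 8-week background was 10.8% higher and 20.8% lower over all genes. Map2k2, the MAP kinase kinase MEK2, fell by 0.77 ± 0.12 (adjusted p = 3.38e-04), Pik3ca, a catalytic subunit of PI3 kinase, by 0.64, and Braf, a kinase under RAS, by 0.63. Stat3, a transcription factor that cytokine and growth factor receptors activate, rose by 0.68 ± 0.12 (adjusted p = 0.00106). With the authors' scaling 4 rose and 4 fell. Over all genes 2110 rose and 1389 fell under that scaling, against 1339 and 2572 here. The balance of calls in the list thus depended on the scaling, as did that of all genes.

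Inhibitors of receptor signalling, not all of them switched on by it, gave 1 higher and 4 lower calls among 21 tested at 8 weeks. None was called at 4 weeks. With 10.8% of all genes called higher and 20.8% lower at 8 weeks, the number of lower calls is near the background. Socs3, a suppressor of cytokine signalling, read 69.7, 46.4 and 55.1 in ICGN and 11.8, 15.2 and 9.19 in ICR at 8 weeks. The log2 difference was 1.55 ± 0.30. Socs3 lay above the array median in 5 arrays, all of them ICGN, so the 1 higher call of this list entered the test only through the strain where it is high. Errfi1, an inhibitor that binds the EGFR kinase, fell by 0.49 ± 0.14 (adjusted p = 0.022), with 6757, 7565 and 7481 in ICGN against 10349, 9572 and 10740 in ICR. Spred2, Socs4 and Cblc fell by 0.50, 0.47 and 0.46. The mean over all Spred2 probe sets turned to 0.070 (adjusted p = 0.757), and the Socs4 call was lost under 9 of 18 alternatives. With the authors' scaling 2 rose and 0 fell, and with quantile normalization 1 rose and 1 fell. Spry1, Spry2 and Dusp6, among the other feedback genes, were not called.

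Immediate targets gave mostly higher calls. Of 15 tested, 8 rose and 1 fell at 8 weeks, and 3 rose and 0 fell at 4 weeks. Over all genes 10.8% rose and 20.8% fell at 8 weeks, and 1.85% rose and 1.65% fell at 4 weeks. The median log2 fold change of the list was 0.64 at 8 weeks and 0.36 at 4 weeks. Fos, a subunit of AP-1, read 256, 184 and 372 in ICGN and 31.7, 25.03 and 10.7 in ICR at 8 weeks, a difference of 3.07 ± 0.32 (adjusted p = 2.26e-05). Egr1, a zinc finger factor, rose by 2.45 at 8 weeks and by 1.14 at 4 weeks. Atf3 rose by 2.00 at 8 weeks. Egr2 had a value of 2.21 at 8 weeks and is among the 8, but it lay above the array median only in the 3 ICGN arrays of that age, so its test adds nothing. Atf3 and Myc rose by 1.53 and by 0.96 at 4 weeks, but these 4-week calls were not firm. The Atf3 call was lost under 11 of 17 alternatives, that of Myc under 6 of 17 and that of Egr1 at 4 weeks under 5 of 18, and with single arrays left out between 0 and 2 of the list rose at 4 weeks. At 8 weeks between 8 and 10 of the list rose under the 3 other scalings, and between 7 and 8 with single arrays left out. Over all genes 1339 rose at that age here, and between 969 and 2110 under those scalings. With the stricter filter 4 of 8 tested genes of the list rose at that age. In the same comparisons 13 macrophage and 17 tubular injury genes rose at 8 weeks, and 9 and 8 genes of these lists at 4 weeks; their part in these values was not tested, nor was that of the EGF family ligands.

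Magnesium handling genes were read because of the known action of EGF on TRPM6. Of 10 tested, 1 rose (Cldn16, above) and 2 fell at 8 weeks, and none was called at 4 weeks. These 8-week counts are near the background of 10.8% higher and 20.8% lower over all genes. Trpm6, the magnesium channel of the distal convoluted tubule, read 93.4, 101 and 130 in ICGN and 206, 179 and 122 in ICR at 8 weeks, with overlap. Its log2 fold change was -0.58 (adjusted p = 0.0514), and it was called under 7 of 18 alternatives. Cnnm2, a magnesium transport regulator of the basolateral membrane, fell by 0.55, and Fxyd2, the gamma subunit of the sodium pump, fell by 0.42. The Fxyd2 call was lost with quantile normalization and with the mean of all its probe sets (-0.20, adjusted p = 0.143).

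**Figure D4:**
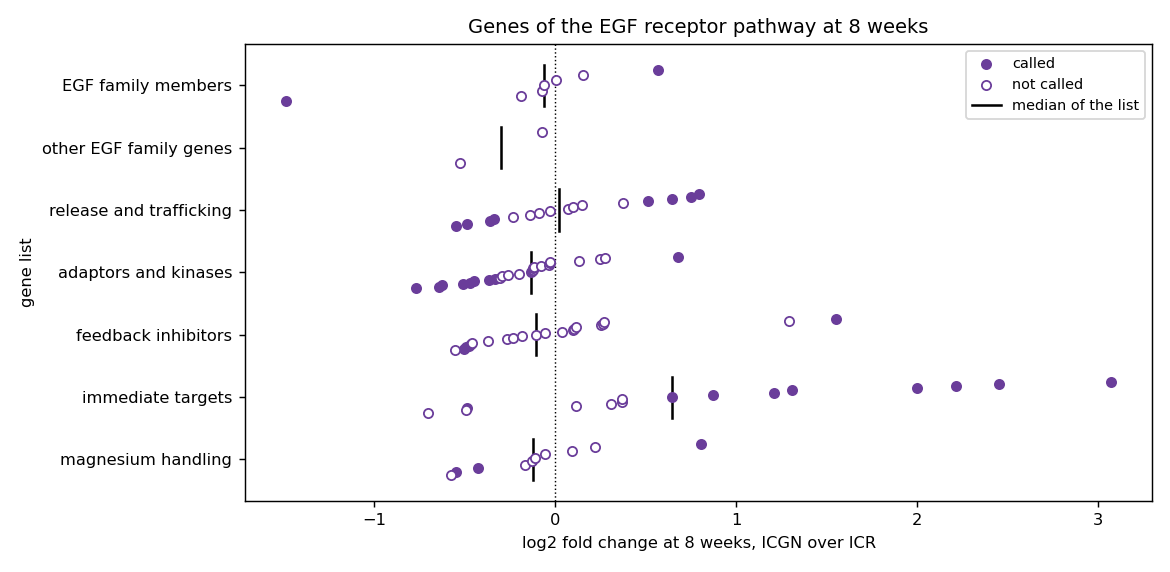
Log2 fold change of ICGN over ICR at 8 weeks for each tested gene of the EGF family and of 6 pathway lists; filled points passed the test, and the black bar is the median of the list. The 15 immediate targets have a median of 0.64 and reach 3.07 (Fos), whereas the members have a median of -0.06 with Egf at -1.49.

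Genes whose log2 values over the 12 arrays ran most like those of Egf were Nadsyn1 (Pearson r = 0.9575), Rnpepl1 (0.9559), Dhx29 (0.9521), Idh3b (0.9502) and Slc22a7 (0.9501). Those most like Tgfa were Zfp449 (0.9515), Nipal2 (0.9109), Mgst1 (0.8941), Ptpre (0.8902) and Tomm34 (0.8897). Both sets are descriptions over arrays that share the 4 groups. Slc22a7, an organic anion transporter of the proximal tubule, had a log2 fold change of -3.35 at 8 weeks and -0.73 at 4 weeks.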

How the data were processed

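RNA of renal cortex was read on the Affymetrix Mouse Genome 430 2.0 platform, as the labels state. The authors deposited linear signal intensity for each probe set; the submitters' processing notes name MAS5 without a version. After trimming 2% at each end, the deposited mean was 100 at 4 weeks and 500 at 8 weeks. Platform annotation gave the symbols, and gene IDs matched RefSeq for 34754 of 34958 named probe sets; 932 probe sets with several symbols and 9211 with none entered no gene count. Arrays were brought to a common median of 175 over the tested probe sets and put on the log2(signal + 11.1) scale, where 11.1 is the lower quartile of all scaled signals. A limma 3.58.1 model (R 4.3.3) of 4 group means with 8 residual degrees of freedom and a mean-variance trend was fitted to 24790 probe sets above their own array's median in at least 3 of 12 arrays, without the 64 controls. Adjustment ran over all of them. A gene is represented by its brightest probe set, _x_at ones only where no other existed. The code was tested on simulated data. Named are every member, up to 4 called, non-overlapping genes a list and comparison, and any gene of the family, release, feedback and distal lists. Members and lists were chosen with earlier results of these data known. Alternatives were other scalings, offsets, filters, adjustment, probe set means, models, a replicate block and each array left out.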

Additional observations from a re-analysis of the deposited data

Results flagged for a closer look

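The strain difference of Egf differed between the ages by the test of that difference. The 8-week value minus the 4-week value was -1.31 on the log2 scale (standard error 0.24, adjusted p = 0.00873 in limma's moderated test). Every ICGN array lay below every ICR array at 8 weeks, and the groups overlapped at 4 weeks. It was called under 23 of 23 alternatives, with values between -1.58 and -1.14. Groups of 3 arrays are too small for the test of single outlying arrays, which was not run.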

How the results depend on the processing

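With 3 arrays a group, the printed intervals of Btc, Erbb2 and the brightest Egfr probe set hold 0 and also differences in either direction. None of these was excluded. Ereg and Erbb4 lay too near background for a test. The 8-week fall of Egf was called under 18 of 18 alternatives (-1.76 to -1.21), its fall with age in ICGN under 17 of 17 and the rise of Erbb3 with age in ICR under 17 of 17. The balance of calls depended on the scaling. At 8 weeks the median log2 fold change of all genes was -0.10, with 34.2% of calls higher. It was 0.05 with 60.3% higher under the authors' scaling (2110 higher, 1389 lower), -0.03 with 50.5% higher under quantile normalization (1542 lower) and -0.18 with 24.8% higher when the whole-table median was equalised. For the interaction 37.1% of calls were positive, against 61.6% (338 negative), 54.7% (324 negative) and 30.1% (209 positive) under those scalings. With the whole-table median 760 genes rose with age in ICGN. With no filter the interaction had 238 positive and 399 negative calls, and without the mean-variance trend 293 negative. The stricter filter gave 791 higher at 8 weeks and 1089 lower with age in ICR. Members called higher at 8 weeks were 0 with the stricter filter, which did not test Tgfa, with probe set means and with only the groups compared; members called lower at 4 weeks were 0 without the trend (Hbegf, adjusted p rounding to 0.05), and 1 member, Hbegf, was positive in the interaction with probe set means.

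Several values turned sign at 8 weeks. Under the authors' scaling Hbegf was 0.082, Egfr 0.092, Adam17 0.12 and Nrg2 0.051. Under quantile normalization Hbegf was 0.051, Btc -0.053, Egfr 0.041, Egfr 1451530_at -0.047, Erbb3 0.014 and Adam17 0.016. With the whole-table median Btc was -0.077, Egfr 1451530_at -0.026 and Hbegf 1418349_at -0.058. With probe set means Adam17 was 0.12, and Spred2 and Wnk1, called in the main setting, were 0.070 and 0.055.

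Leaving out each array in turn gave ranges. At 8 weeks all genes called were 954 to 1314 higher and 1875 to 2392 lower, with members 0 to 1 higher and 1 lower. At 4 weeks 97 to 203 were higher and 92 to 178 lower, with 0 to 1 members lower. Both 4-week counts fell over 1.5 times without ICGN replicate 1 (124 and 100), ICGN replicate 2 (97 and 92), ICR replicate 2 (138 and 118) or ICR replicate 3 (151 and 125). The interaction had 192 to 425 positive and 310 to 724 negative calls, with 0 to 1 members positive and the fewest without ICGN replicate 3 at 8 weeks (192 positive) and ICGN replicate 2 at 4 weeks (310 negative). With age 771 to 1049 rose and 1097 to 1294 fell in ICGN, with 0 to 1 members higher, and 1736 to 2173 rose and 1319 to 1516 fell in ICR. Uncalled values whose sign turned at 4 weeks ranged from -0.10 to 0.22 for Egfr 1424932_at, -0.036 to 0.19 for Egfr 1432647_at, -0.15 to 0.18 for Erbb2 and -0.28 to 0.0027 for Egfr. At 8 weeks they ranged from -0.10 to 0.14 for Btc, -0.16 to 0.057 for Egfr, -0.11 to 0.024 for Adam17, -0.13 to 0.14 for Hbegf 1418349_at, -0.24 to 0.10 for Hbegf, -0.030 to 0.16 for Egfr 1451530_at, -0.031 to 0.18 for Adam10 and -0.16 to 0.038 for Nrg2.

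In their deviations from the group means, same-numbered ICGN and ICR arrays had correlations of -0.0699 to 0.175 (8 weeks) and -0.0708 to 0.0842 (4 weeks), so the numbers were not taken to pair them. With the replicate number within age as a block 1229 genes were higher and 2330 lower at 8 weeks, 182 and 165 at 4 weeks, and the interaction had 280 positive and 419 negative calls; with it the 8-week calls of Egfr 1460420_a_at, Wnk1, Klk1, Adam8, Hgs and Socs4 and the interaction call of Hbegf 1418349_at (adjusted p = 0.0578) were lost, and no call of a probe set that represents a member gene was.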
